A study of Mus musculus with 6 samples.

Results

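The 8 genes described here are markers of the CD11b-positive, Notch-dependent dendritic cells of the spleen and parts of the Notch pathway: Itgam, Sirpa, Cd4, Esam, Dtx1, Notch2, Rbpj and Hes1. They were taken from the array by symbol, as every probe set that the platform annotation assigns to 1 of these genes, which gave 13 of 45037 tested probe sets for 8 of 17097 genes. Expression was measured in CD11c+ dendritic cells sorted by flow cytometry from the spleens of C57Bl/6 mice, with 3 samples labelled Map3k7 (TAK1) knockout (genotype Map3k7CreER) and 3 labelled wild-type (genotype WT), each on 1 Affymetrix array. Mice of both genotypes had been given tamoxifen for 3 days, so the drug is shared and the Cre transgene and the deletion are not. TAK1, the product of Map3k7, is a signalling kinase downstream of innate immune and cytokine receptors. The promoter that drives CreER, the age of the mice and whether a sample was 1 mouse or a pool are not given in the sources used here. The labels do not state that each sample is a different mouse, so each p-value reflects the scatter among these 6 samples alone, which may be technical.

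Splenic dendritic cells fall into a CD8a-positive subset and a CD11b-positive subset. In mice, many CD11b-positive cells carry CD4 and the adhesion molecule ESAM, and these cells need the receptor Notch2 and the DNA-binding factor RBPJ. When a ligand binds a Notch receptor, proteases release its intracellular part, which joins RBPJ and Mastermind proteins in the nucleus and switches on targets such as Hes1 and Dtx1. CD11b itself, the integrin alpha M chain encoded by Itgam, pairs with the beta 2 chain and is also abundant on macrophages, monocytes and neutrophils, and SIRPα, encoded by Sirpa, is an inhibitory receptor for CD47 found on CD11b-positive dendritic cells and macrophages.

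The CD11b chain and the Notch target Dtx1 changed in opposite directions. Itgam was 2.48-fold higher in knockout cells, and Dtx1 was 1.96-fold lower. Both passed the test used throughout, limma with a Benjamini-Hochberg adjusted p under 0.05 over all probe sets. Esam was 2.14-fold lower and Cd4 1.96-fold lower in knockout cells with no overlap between the groups, and their adjusted p in limma were 0.0926 and 0.0535. Of the 8 genes, 1 was called higher, 1 was called lower and 6 did not pass, where 1.08% of all genes were called higher, 0.591% lower and 1.67% either way. Among the 13 probe sets 2 were called, against 1.19% of all probe sets.

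Promoter windows of Itgam, Dtx1 and Rbpj are shown because the first pair are the genes that passed and differ in opposite directions, and Rbpj encodes the factor whose binding motif was searched. RefSeq windows of 300 bases on GRCm38.p6, which run from 250 bases before to 50 after the annotated start, were held for 4 of the 8 genes, 5 windows in all. Each is written 5′ to 3′ on the gene's strand, and capitals mark TGGGAA, the core recognised by RBPJ, or GAGGAA, a core recognised by the myeloid factor PU.1, on either strand (TTCCCA and TTCCTC on the other strand). No match of one motif overlapped a match of the other in these windows.
Itgam, chr7:128062390-128062689, plus strand: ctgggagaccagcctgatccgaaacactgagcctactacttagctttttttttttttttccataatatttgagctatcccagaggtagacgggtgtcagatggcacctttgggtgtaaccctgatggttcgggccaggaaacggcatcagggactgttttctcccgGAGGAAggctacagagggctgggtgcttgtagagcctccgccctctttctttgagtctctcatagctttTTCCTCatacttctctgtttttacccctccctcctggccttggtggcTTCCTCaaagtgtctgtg
Dtx1, chr5:120711620-120711919, minus strand: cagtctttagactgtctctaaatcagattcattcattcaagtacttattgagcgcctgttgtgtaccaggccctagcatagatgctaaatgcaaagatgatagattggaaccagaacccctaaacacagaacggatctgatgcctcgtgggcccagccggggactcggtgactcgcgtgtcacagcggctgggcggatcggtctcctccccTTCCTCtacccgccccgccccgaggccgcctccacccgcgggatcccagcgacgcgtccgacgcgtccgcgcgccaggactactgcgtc
Rbpj, chr5:53590096-53590395, plus strand: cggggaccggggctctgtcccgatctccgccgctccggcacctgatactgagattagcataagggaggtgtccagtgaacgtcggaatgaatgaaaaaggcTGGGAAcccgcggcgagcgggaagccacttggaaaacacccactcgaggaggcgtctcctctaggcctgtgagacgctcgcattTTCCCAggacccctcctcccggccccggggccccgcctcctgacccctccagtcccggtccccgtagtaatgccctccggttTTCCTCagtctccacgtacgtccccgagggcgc

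In the Itgam window GAGGAA matched 3 times, starting at base -84, -15 and 33 from the start site, and TGGGAA had 0 matches. The Dtx1 window held 1 match of GAGGAA, at -39, and 0 of TGGGAA, and the Notch2 window held neither. TGGGAA matched 2 times in the Rbpj window shown, at -149 and -65, beside 1 match of GAGGAA at 18. The second Rbpj window overlaps the first. Such short motifs are common: 25.6% of 32851 promoter windows of the same length held TGGGAA and 28.3% held GAGGAA. A match describes the letters only, and binding was not measured.

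The arrays carried the deletion at the RNA level: on the 3 brighter of 5 Map3k7 probe sets the groups were apart, with limma differences of -2.60 (adjusted p = 0.00128), -2.34 (adjusted p = 0.0181) and -3.25 (adjusted p = 0.000165). The median log2 signal of an array was 3.77 to 3.81, so a probe set near 4 is close to the median probe set and may report an unexpressed transcript. The dendritic cell markers Itgax, which encodes CD11c, H2-Ab1 and Cd74 stood at 10.93, 13.54 and 13.04 in knockout cells and at 11.16, 13.60 and 13.05 in wild-type cells. Of 7 such markers 0 were called by the brightest probe set, with 5 differences negative and 2 positive. Zbtb46 stood at 7.45 in knockout cells and 8.20 in wild-type cells (-0.75, limma adjusted p = 0.0621), and 2 of its 4 probe sets were called lower. Flt3 (0.35, limma adjusted p = 0.284) and Dpp4 (0.32, limma adjusted p = 0.367) were higher in every knockout array, and neither passed. Such a separation upward held for 10.6% of all genes. Values below are log2 RMA signals of single probe sets, and levels of different genes are not set against each other because probe sets differ in brightness. A gene with several probe sets is given by its brightest one. The other probe sets are given for the 8 genes, and for other genes where they are named below.

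Itgam, the CD11b chain, read 6.95, 7.88 and 7.60 in the knockout arrays, against 6.41, 5.98 and 6.12 in the wild-type arrays. Every knockout array was above every wild-type array, and knockout replicate 1 lay nearest to wild type. The mean was 7.47 ± 0.48 in knockout cells and 6.17 ± 0.22 in wild-type cells (SD, 3 arrays each), which differed by 1.31 (SE 0.23, 95% interval 0.77 to 1.84, limma adjusted p = 0.0466). As high a difference or higher was found in 0.532% of the 17097 genes. The call rests on the full set of arrays: when single arrays were dropped Itgam still passed without knockout replicate 1 (limma adjusted p = 0.00798), and not without knockout replicate 2 or 3 or any wild-type replicate (limma adjusted p 0.107 to 0.168).

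Sirpa, which shares the CD11b-positive cells with Itgam, gave no common direction. Its brightest probe set read 9.65, 9.67 and 9.59 in knockout cells, against 9.77, 9.61 and 10.17 in wild-type cells. The groups overlapped, with a difference of -0.21 (95% interval -0.55 to 0.12, limma adjusted p = 0.658). A second probe set differed by -0.05, from 7.28, 7.38 and 7.34 in knockout cells and 7.31, 7.13 and 7.71 in wild-type cells. The third and dimmest went the other way, at 6.11, 5.99 and 6.29 in knockout cells against 6.03, 5.38 and 5.75 in wild-type cells, a difference of 0.41 (95% interval 0.02 to 0.80, limma adjusted p = 0.38). None of the 3 probe sets passed.

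Dtx1 encodes a Deltex ubiquitin ligase and is a direct Notch target. Its bright probe set read 9.80, 9.56 and 9.53 in knockout cells, against 10.46, 10.44 and 10.92 in wild-type cells, with no overlap. The mean was 9.63 ± 0.15 in knockout cells and 10.60 ± 0.27 in wild-type cells (SD, 3 arrays each), a log2 difference of -0.97 (SE 0.15, 95% interval -1.32 to -0.62, limma adjusted p = 0.0306). The second Dtx1 probe set was dim, at 3.87, 3.79 and 3.76 in knockout cells against 4.37, 4.004 and 4.14 in wild-type cells, and did not pass, although here too the knockout arrays were the 3 lowest (difference -0.36, limma adjusted p = 0.226). When single arrays were dropped Dtx1 still passed without knockout replicate 1 or wild-type replicate 3, and not without knockout replicate 2 or 3 or wild-type replicate 1 or 2 (limma adjusted p 0.0727 to 0.153).

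Esam, an endothelial-type adhesion molecule that marks the Notch2-dependent cells among CD11b-positive dendritic cells, read 7.45, 7.003 and 6.50 in knockout cells. The wild-type arrays read 8.02, 7.82 and 8.42, so the groups did not overlap. The means of 6.99 ± 0.47 in knockout cells and 8.09 ± 0.30 in wild-type cells (SD, 3 arrays each) differed by -1.10 (SE 0.25, 95% interval -1.67 to -0.53), and 0.573% of all genes had a difference as low or lower. The adjusted p of 0.0926 in limma missed the threshold, and without knockout replicate 1, the knockout array nearest to wild type, it was 0.0344. With any other single array dropped Esam did not pass (limma adjusted p 0.167 to 0.278).

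Cd4, the co-receptor that CD11b-positive splenic dendritic cells share with helper T cells, read 6.25, 5.95 and 5.56 in knockout cells, against 6.79, 6.79 and 7.09 in wild-type cells. Again the groups did not overlap and knockout replicate 1 was nearest to wild type. The means of 5.92 ± 0.35 in knockout cells and 6.89 ± 0.17 in wild-type cells (SD, 3 arrays each) differed by -0.97 (SE 0.18, 95% interval -1.39 to -0.56), with a limma adjusted p of 0.0535 (0.0235 without knockout replicate 1). With any other single array dropped Cd4 did not pass (limma adjusted p 0.0836 to 0.197). The second Cd4 probe set lay near the array median, at 3.98, 3.54 and 3.87 in knockout cells and 3.94, 4.22 and 3.75 in wild-type cells, and its groups overlapped (difference -0.18, limma adjusted p = 0.758). In sorted bulk samples such as these, fewer cells that carry a transcript and less of it per cell cannot be told apart.

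**Figure D1:**
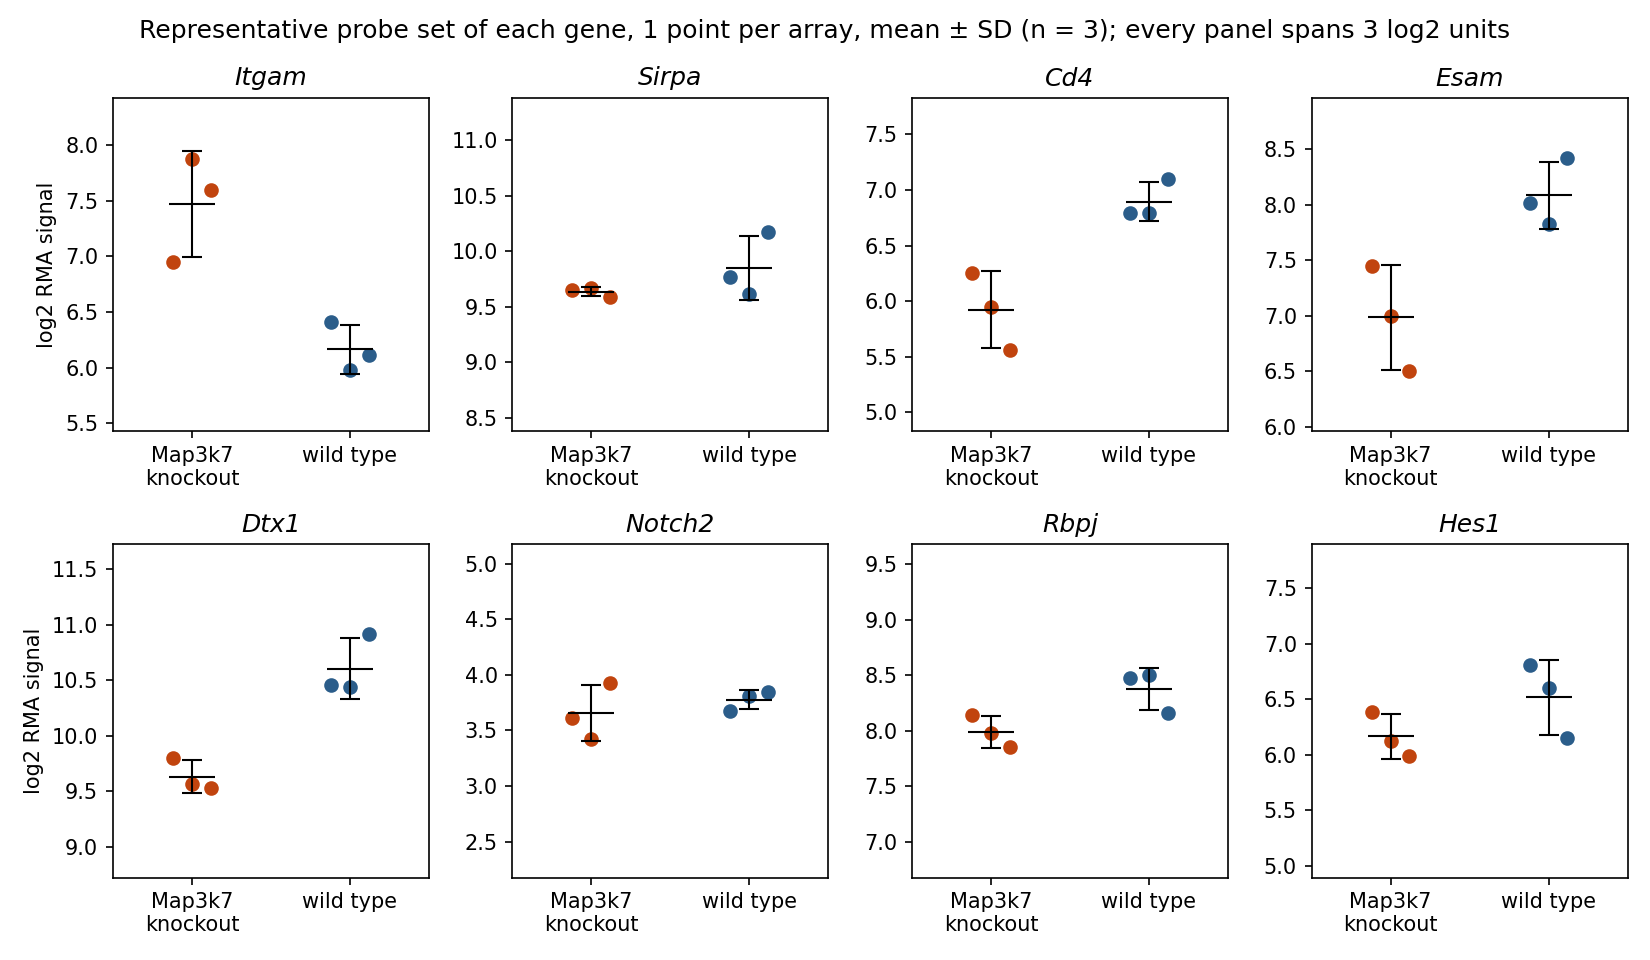
Log2 RMA signal (vertical axis) of the brightest probe set of each of the 8 genes in the 3 Map3k7 knockout arrays (left, orange) and the 3 wild-type arrays (right, blue), with the mean and SD as black lines. Itgam is higher in all 3 knockout arrays, Cd4, Esam, Dtx1 and Rbpj are lower in all 3, and the groups overlap for Sirpa, Notch2 and Hes1.

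The receptor Notch2 itself could not be followed. Its single probe set read 3.61, 3.43 and 3.93 in knockout cells, against 3.68, 3.81 and 3.84 in wild-type cells, which is at the level of the median probe set. The difference was -0.12 (95% interval -0.44 to 0.20, limma adjusted p = 0.823), and a probe set this dim may miss a change in the transcript.

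Rbpj, the DNA-binding partner of the released Notch fragment, read 8.14, 7.98 and 7.85 in knockout cells, against 8.47, 8.51 and 8.16 in wild-type cells. All 3 knockout arrays were lower, knockout replicate 1 by a narrow margin from wild-type replicate 3. The difference of -0.39 (SE 0.13, 95% interval -0.69 to -0.09) did not pass (limma adjusted p = 0.245). On the second probe set the readings were 5.53, 4.91 and 5.58 in knockout cells and 5.66, 5.72 and 5.72 in wild-type cells, again without overlap, with a difference of -0.36 (limma adjusted p = 0.475). Both Rbpj probe sets therefore differed by a similar amount in the same direction, and neither passed.

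Hes1, a transcriptional repressor and Notch target, read 6.38, 6.13 and 5.98 in knockout cells, against 6.80, 6.60 and 6.15 in wild-type cells. Knockout replicate 1 lay above wild-type replicate 3, so the groups overlapped. The difference was -0.35 (SE 0.18, 95% interval -0.77 to 0.07, limma adjusted p = 0.508). The interval takes in no difference as well as a fall of the size seen for Rbpj.

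**Figure D2:**
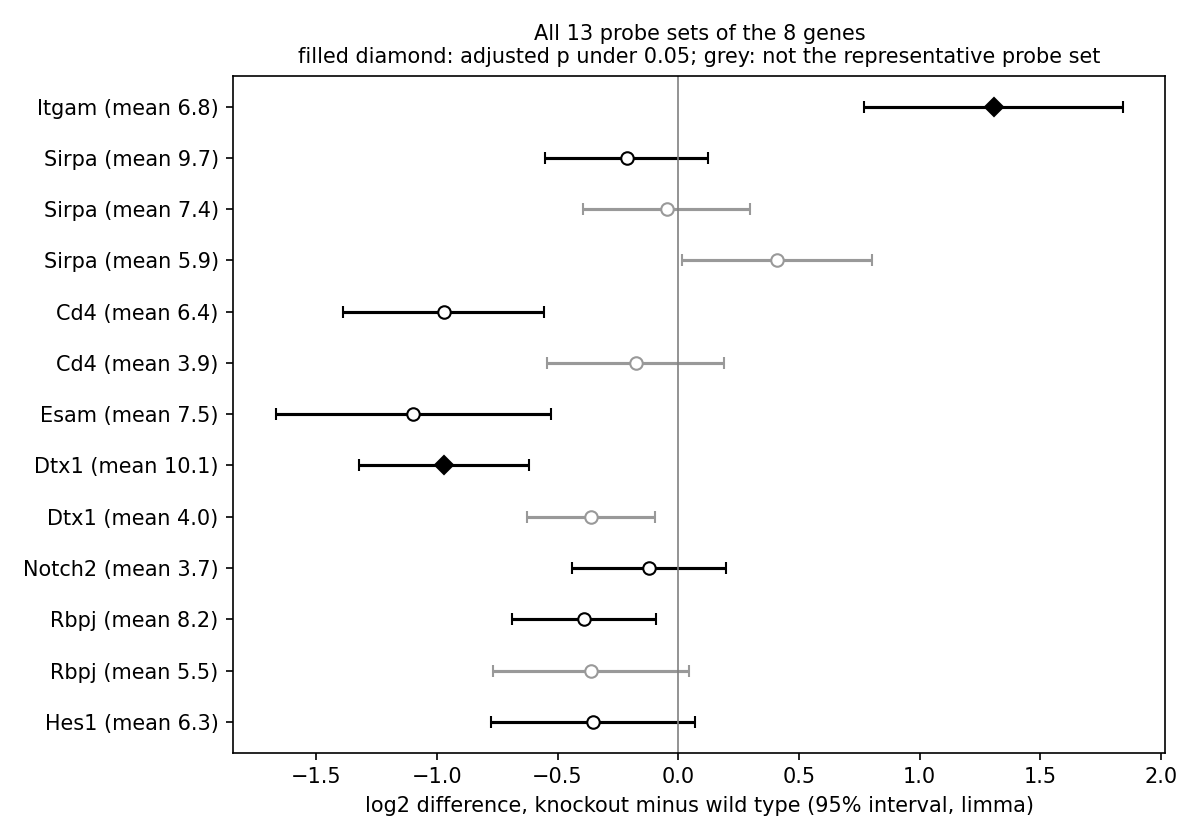
Log2 difference, knockout minus wild type (horizontal axis), with its 95% interval from limma, for all 13 probe sets of the 8 genes, each labelled with its mean log2 level over the 6 arrays. The filled diamonds are Itgam at 1.31 and the bright Dtx1 probe set at -0.97, and grey marks the dimmer probe sets of a gene.

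Over the 8 genes, 7 differences were negative and Itgam's was positive, with a median of -0.37, beside a median of -0.02 over all 17097 genes. The knockout arrays lay wholly below the wild-type arrays for 4 of the 8 genes and wholly above for 1, where this held for 10.6% of all genes in each direction and 21.2% in either. At an unadjusted p under 0.05 there were 5 of the 8 genes, against 16.4% of all genes. These members were chosen with earlier results of the same arrays known, so the counts describe the genes and are not a test of the list.

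Setting each Notch2-dependent marker against Itgam within an array removes what raises or lowers a whole array. Esam minus Itgam was 0.50, -0.87 and -1.09 in the knockout arrays, against 1.61, 1.85 and 2.30 in the wild-type arrays. For Cd4 minus Itgam the differences were -0.70, -1.93 and -2.04 in knockout cells and 0.38, 0.82 and 0.98 in wild-type cells. Dtx1 minus Itgam was 2.85, 1.69 and 1.93 in knockout cells and 4.05, 4.46 and 4.80 in wild-type cells.

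The groups were apart for all 3 pairs, and knockout replicate 1 was the knockout array nearest to wild type in each. Relative to Itgam, knockout cells were lower by 2.41 for Esam, by 2.28 for Cd4 and by 2.28 for Dtx1 on the log2 scale, a change in the ratio of 5.30-fold, 4.86-fold and 4.85-fold. Each 2-sided exact permutation p was 0.1, as was each p adjusted over the 3 pairs. That is the smallest that 3 against 3 arrays can give. Itgam alone was already higher, and Esam, Cd4 and Dtx1 each lower, in every knockout array. The separation and the p of 0.1 were therefore fixed by the single-gene values and add no support to them. All 3 pairs share the same Itgam values, so they are not independent of each other. With 1 array left out the differences ran from -2.90 to -2.10 for Esam, -2.71 to -2.04 for Cd4 and -2.63 to -2.04 for Dtx1.

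**Figure D3:**
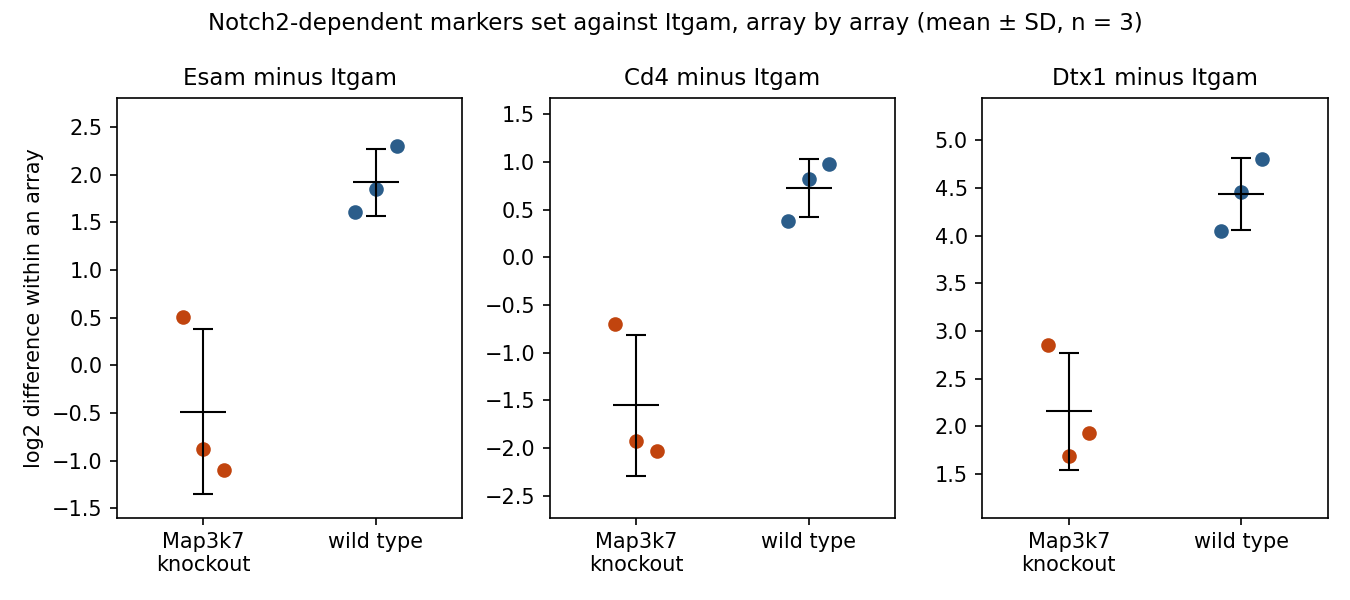
Log2 difference within an array (vertical axis) between Esam, Cd4 or Dtx1 and Itgam, for the 3 knockout arrays (left, orange) and the 3 wild-type arrays (right, blue), with the mean and SD as black lines. The knockout arrays lie below the wild-type arrays in each panel, and the vertical position itself depends on probe brightness.

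Some of these genes are also expressed by other cell types that a CD11c sort could hold. Beside the higher Itgam, 4 of 10 macrophage markers were called higher and 0 lower. Over all genes 1.08% were called higher and 0.591% lower. The 4 were the mannose receptor Mrc1 (2.31, limma adjusted p = 0.00658), Cd163 (1.58), Cd5l (1.51) and Mertk (1.16). The summed linear signal of the 10 markers was 2304 to 3364 in knockout arrays and 1940 to 2102 in wild-type arrays. Of the 10 differences 8 were positive and 2 negative. The macrophage marker Adgre1, which encodes F4/80, had a difference of -0.28 (limma adjusted p = 0.463). Hmox1 had a difference of -0.53 (limma adjusted p = 0.134), with every knockout array below every wild-type array. Of 6 monocyte markers Cd14, a co-receptor for lipopolysaccharide, was called higher (2.09, limma adjusted p = 0.00873) and 0 were called lower. Their sums were 3738 to 5272 in knockout arrays and 4063 to 4939 in wild-type arrays. Lyz2 (-0.54, limma adjusted p = 0.351) made up the largest part of the sum in every array. Fcgr1 was higher in every knockout array (0.81, limma adjusted p = 0.0721). Of the 6 differences 4 were positive and 2 negative. None of 7 neutrophil markers passed, while their sums were 322.0 to 1424 in knockout arrays and 154 to 277 in wild-type arrays, and the sums were made up mostly of S100a8 and S100a9, the calprotectin subunits, which monocytes also express. S100a8 read 7.48, 9.29 and 6.83 in knockout cells against 6.10, 4.81 and 5.84 in wild-type cells, with no overlap (2.28, limma adjusted p = 0.147), and S100a9 read 8.14, 9.48 and 7.16 in knockout cells against 7.17, 5.77 and 7.25 in wild-type cells, with overlap (1.53, limma adjusted p = 0.343). Like Itgam, both were highest in knockout replicate 2. Their lowest knockout array was replicate 3, whereas that of Itgam was replicate 1. The granule genes Mpo and Elane stood at 3.56 and 3.66 in knockout cells and 3.55 and 3.58 in wild-type cells, below the median probe set. The granule gene Ngp read 3.94, 4.77 and 4.01 in knockout cells against 4.10, 4.18 and 3.996 in wild-type cells, with overlap. Ltf and Camp, also with overlap, differed by 0.14 and -0.14. The part of these cells in the Itgam difference was not tested.

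Beside the lower Cd4, 0 of 7 T cell markers passed, with sums of 168 to 194 in knockout arrays and 198 to 210.2 in wild-type arrays. The T cell receptor chains Cd3e and Cd3d stood at 5.37 and 3.69 in knockout cells and at 5.46 and 3.94 in wild-type cells. Next to the lower Esam, which endothelial cells and platelets also express, 0 of 7 endothelial markers passed. Their sums were 242 to 268 in knockout arrays and 158 to 198 in wild-type arrays, and without Pecam1, an adhesion molecule that leukocytes also express (7.18 in knockout cells and 6.24 in wild-type cells, limma adjusted p = 0.0681), they were 94.8 to 122 in knockout arrays and 94.6 to 102 in wild-type arrays, which overlap. The endothelial cadherin Cdh5 was near the median probe set, at 3.75 in knockout cells and 3.32 in wild-type cells. Platelet markers had 0 of 6 called and sums of 113 to 119 in knockout arrays and 111 to 121 in wild-type arrays.

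Beside the lower Esam, Cd4 and Dtx1, sums of B cell and erythroid markers were also lower in knockout arrays, with 0 of 6 and 0 of 4 markers called by the brightest probe set. The T cell sums above were lower too. So were sums of markers of CD8a-positive dendritic cells, 15541.6 to 17540.5 in knockout arrays and 18281.3 to 22498.1 in wild-type arrays. B cell sums were 400.1 to 461 in knockout arrays and 504 to 644 in wild-type arrays, mostly from Ms4a1. That gene read 7.88, 8.01 and 8.41 in knockout cells against 8.88, 8.55 and 8.38 in wild-type cells, with overlap (-0.51, limma adjusted p = 0.275). Of the 6 B cell differences 5 were negative and 1 positive. Erythroid sums were 62.5 to 169 in knockout arrays and 397 to 1745 in wild-type arrays, mostly from the globin gene Hba-a1, which read 7.02, 7.09 and 4.81 in knockout cells against 10.41, 10.73 and 8.50 in wild-type cells (-3.57, limma adjusted p = 0.0713). All 3 Hba-a1 probe sets had a negative difference, and 1 of them was called lower. Other erythroid markers, such as Klf1, were near the median probe set, at 3.57 in knockout cells and 3.91 in wild-type cells. The part of these cells in the differences of Esam, Cd4 and Dtx1 was not tested.

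Among other genes linked to CD11b-positive dendritic cells there was no common direction. Of 28 listed genes 24 were measured, all above the median probe set. Among them 2 were called higher, 2 lower and 20 did not pass, with a median of -0.03. The shares over all genes were 1.08% higher and 0.591% lower. The 2 called higher were Itgam and Clec10a, a galactose-binding lectin, which read 8.55, 8.70 and 8.23 in knockout cells against 6.77, 6.29 and 6.45 in wild-type cells (1.99, SE 0.16, limma adjusted p = 0.0026). Those called lower were Dtx1 and Relb, the NF-kB subunit that the CD11b-positive splenic subset needs, which read 9.15, 8.95 and 9.27 in knockout cells against 10.12, 10.27 and 10.64 in wild-type cells (-1.22, SE 0.15, limma adjusted p = 0.0125). Without the members of the set of 8, 1 of 19 was higher and 1 lower.

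Irf4, the transcription factor of this subset, had a difference of -0.23 (95% interval -0.62 to 0.16, limma adjusted p = 0.694). The chemokine receptors that in mice mark the ESAM-low, Notch2-independent cells split: Ccr2 stood at 8.66 in knockout cells and 8.10 in wild-type cells (0.57, limma adjusted p = 0.332), with its 3 other probe sets at 0.98 (limma adjusted p = 0.0837), 0.17 and 0.41, and Cx3cr1 at 5.69 in knockout cells and 6.70 in wild-type cells (-1.02, limma adjusted p = 0.0654). For Cx3cr1 the knockout arrays, at 6.07, 5.50 and 5.48, lay below the wild-type arrays, at 6.68, 6.42 and 7.002, while its second probe set, near the median, differed by -0.09 with overlap. Lyz2, another gene of those cells, had a difference of -0.54 (limma adjusted p = 0.351). With 1 array left out the calls in this list numbered from 1 to 7.

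Over all genes 1.08% were called higher and 0.591% lower. Among 12 measured markers of the other splenic subset, the CD8a-positive cells, 1 was called higher and 0 lower by representative probe set. The one called was Itgae, the CD103 integrin chain, which read 9.84, 9.999 and 9.23 in knockout cells against 7.44, 8.22 and 8.04 in wild-type cells (1.79, limma adjusted p = 0.0211), and 9 of the 12 differences were negative. Cd8a read 10.06, 9.81 and 8.999 on its brightest probe set in knockout cells, against 11.02, 11.48 and 10.78 in wild-type cells (-1.47, limma adjusted p = 0.062), and 1 of its 3 probe sets was called lower (-1.44, limma adjusted p = 0.0306).

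**Figure D4:**
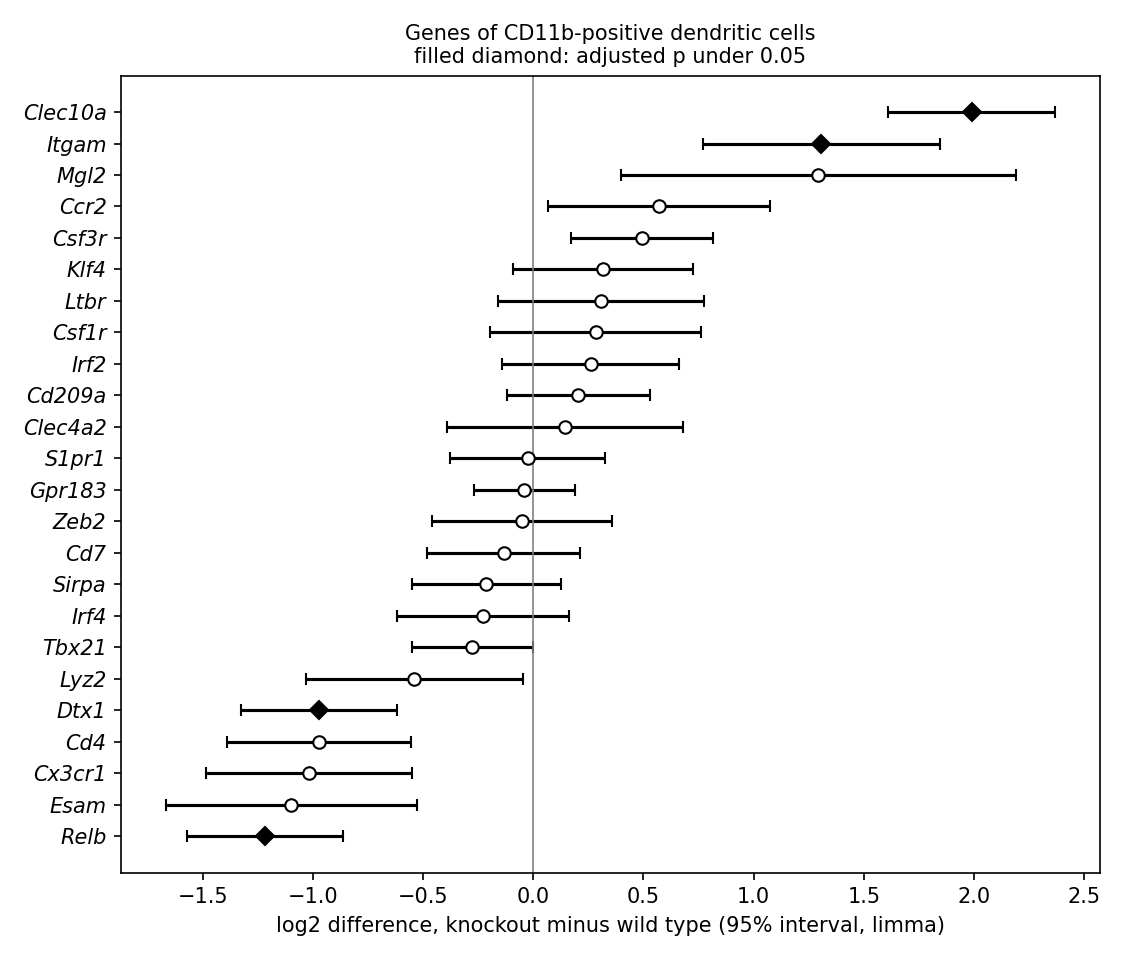
Log2 difference, knockout minus wild type (horizontal axis), with its 95% interval from limma, for the 24 measured genes linked to CD11b-positive dendritic cells. Clec10a (1.99) and Itgam (1.31) are called higher, Relb (-1.22) and Dtx1 (-0.97) are called lower, and open circles did not pass.

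The integrin and SIRP partners gave 1 call. Itgb2, the beta chain that pairs with CD11b, read 11.37, 11.33 and 11.41 in knockout cells and 11.29, 11.36 and 11.53 in wild-type cells, a difference of -0.02 (95% interval -0.25 to 0.20, limma adjusted p = 0.964). Itgal, the alpha chain of LFA-1 that shares this beta chain, read 9.56, 9.42 and 9.58 in knockout cells against 10.10, 10.01 and 10.25 in wild-type cells and was called lower (-0.60, SE 0.10, limma adjusted p = 0.0429). The integrin activator Fermt3 stood at 0.35 (limma adjusted p = 0.217) and Itgax, the CD11c chain by which the cells were sorted, at -0.22 (limma adjusted p = 0.5). Thus of 5 measured genes around CD11b 0 were called higher and 1 lower, beside 1.08% and 0.591% of all genes. Itgam's own difference was positive. None of 4 measured SIRP partners passed: the SIRPα ligand Cd47 differed by 0.09 (limma adjusted p = 0.805) and the phosphatase Ptpn11, which SIRPα recruits, by 0.21 (limma adjusted p = 0.399).

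The wider Notch pathway showed 1 call among 56 measured genes of 63 listed, the fall of Dtx1, where 1.67% of all genes were called. Without the members of the set of 8, 0 of 52 were called. Of the 56 genes 45 were at or above the median probe set. The median difference was 0.02, with 25 negative and 31 positive. Ligands gave 0 calls among 5, and 3 of the 5 lay below the median probe set. Jag1 stood at -0.33 (limma adjusted p = 0.372) and Dll4 at -0.13 (limma adjusted p = 0.69).

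Among the 4 receptors 0 passed. Notch1 read 5.64, 6.43 and 6.68 in knockout cells, against 5.13, 4.86 and 5.20 in wild-type cells, a difference of 1.19 (SE 0.25, 95% interval 0.61 to 1.77, limma adjusted p = 0.0774), and its second probe set differed by 0.47, again with no overlap. Knockout arrays were thus higher for Notch1 on both probe sets, without passing. Notch3 differed by 0.42 (limma adjusted p = 0.412) on one probe set and by -0.06 on the other, and Notch4 by -0.03 (95% interval -0.40 to 0.33) on its brightest.

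No ligand ubiquitin ligase (3 genes), glycosylation enzyme (5) or protease (9) passed. The ligand ubiquitin ligase Mib1 stood at 0.62 (limma adjusted p = 0.162) and Neurl1a at -0.10 (limma adjusted p = 0.769). Of the enzymes that put sugars on Notch, Poglut1 stood at -0.42 (limma adjusted p = 0.446) and the fringe Lfng at 0.32 (limma adjusted p = 0.575). Among proteases, Psen2, a catalytic subunit of gamma-secretase, read 7.51, 7.92 and 7.91 in knockout cells against 7.07, 7.15 and 7.21 in wild-type cells (0.64, 95% interval 0.34 to 0.94, limma adjusted p = 0.0709), and the gamma-secretase subunit Aph1c stood at 0.33 (limma adjusted p = 0.218). Of 9 proteases 8 differences were positive.

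In the nucleus, the coactivators Kat2b (0.52, limma adjusted p = 0.208) and Maml1 (0.50, limma adjusted p = 0.226) were the genes with the smallest p of the RBPJ complex, and 0 of 4 passed. Corepressors gave 0 calls among 7, with 5 differences negative and 2 positive. The smallest p were those of the 2 positive ones, Tle4 (0.31, limma adjusted p = 0.34) and Tle3 (0.30, limma adjusted p = 0.684). Of 11 target genes Dtx1 alone passed, 6 lay below the median probe set and 8 differences were negative. Ptcra, a T cell receptor component and Notch target in thymocytes, read 3.74, 3.64 and 3.98 in knockout cells and 3.31, 3.26 and 3.34 in wild-type cells, with a mean below the median probe set (0.48, limma adjusted p = 0.101). Genes of Notch turnover and inhibition had 0 of 8 called, with the ubiquitin ligase subunit Fbxw7 at 0.44 (limma adjusted p = 0.231) and the inhibitor Numb at 0.51 (limma adjusted p = 0.246). Of the probe sets of these named genes, Tle4, Numb, Mib1, Dll4, Neurl1a, Notch3 and Notch4 had some in the other direction, none past the threshold. For Tle4 only 1 of 3 probe sets went in the direction given.

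**Figure D5:**
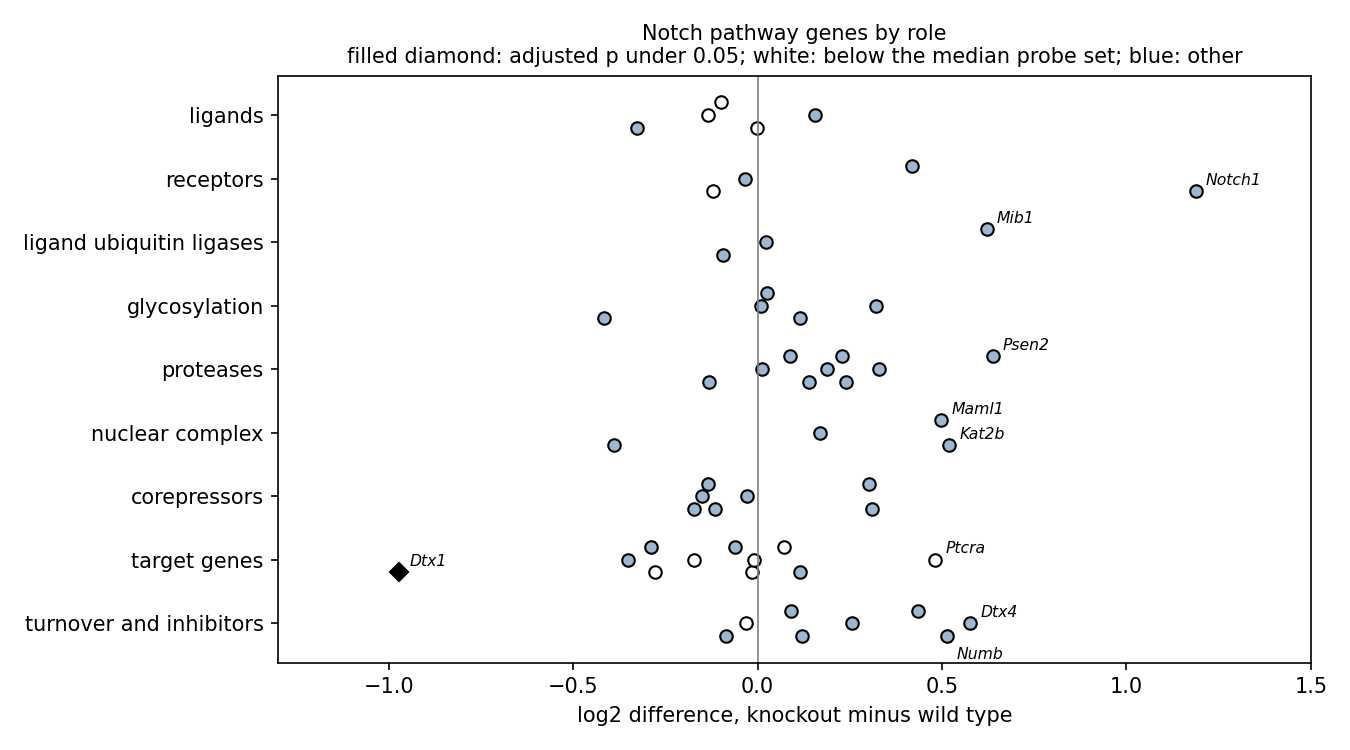
Log2 difference, knockout minus wild type (horizontal axis), of the 56 measured Notch pathway genes, grouped by role, with points spread vertically within a role for legibility. Dtx1 (-0.97) is the filled diamond, the 1 gene past the threshold, Notch1 lies at 1.19, and white points are genes below the median probe set.

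The genes whose pattern over the 6 arrays was most like that of Esam, Cd4 and Itgam were sought among 10511 other genes at or above the median probe set. Closest to Esam by Pearson's r were Cad, which encodes the enzyme that starts pyrimidine synthesis (r = 0.999), Spats2 (r = 0.996) and the glucose transporter Slc2a3 (r = 0.996), with differences of -0.30, -0.87 and -0.70. For Cd4 they were Dbr1, which encodes the lariat debranching enzyme (r = 0.994), the G protein regulator Rgs12 (r = 0.994) and the ATP synthase subunit Atp5l (r = 0.992), with differences of -0.44, -0.99 and -0.21. Those nearest Itgam were Tmem185b (r = 0.999), the growth factor gene Hbegf (r = 0.997) and the kinase gene Akt2 (r = 0.993), with differences of 0.65, 0.77 and 0.36. All of these values come from the same 6 arrays, which fall into 2 groups, so r is given as a description only. None of the 9 genes passed the threshold.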

How the data were processed

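The deposited values are log2 signals that the authors made by RMA. Expression Console 1.1 is named in the submitters' processing notes. The log2 scale was read from the values, 2.58 to 13.9. Per the labels' protocols, 100 ng of RNA per sample was labelled. Of 45141 probe sets 104 controls were left out. Genes were named from the platform annotation (28898 probe sets with 1 symbol, 551 with several, 15588 with none, of which the last 2 kinds name no gene) and 28689 matched RefSeq by Entrez ID. No 2 arrays held identical values.

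Knockout minus wild type was fitted over all probe sets in R 4.3.3 with limma 3.58.1 (lmFit, eBayes, no covariates). Each gene was represented by its brightest probe set, by mean log2 signal. The step was tested on simulated data with independent normal noise. That test does not cover array effects, correlated noise or a spread that depends on level. The members and lists were chosen with earlier results of these data known. The text names the members and 3 genes per likeness search. From each Notch role and each other list it names up to 4 genes past the threshold or the 2 with the smallest p. That rule was not applied to the cell type markers. Cell type markers with values, the sum without Pecam1, and Irf4, Ccr2, Cx3cr1, Lyz2, Notch4, Itgb2 and Itgax, were picked after their values were seen. The alternatives varied the probe set, the filter, the normalization, the variance model, weights per array, a block for the replicate number and which arrays entered. With 3 arrays a group, precision is limited by that number. Figures used matplotlib 3.10.9.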

Additional observations from a re-analysis of the deposited data

How the results depend on the processing

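Itgam (log2 difference 1.31) and Dtx1 (-0.97) passed in all 9 alternatives that kept the 6 arrays. With 1 array left out, Itgam ranged from 1.11 to 1.57 and passed in 1 of 6 fits, and Dtx1 ranged from -1.06 to -0.82 and passed in 2 of 6. Esam ranged from -1.33 to -0.86 there and Cd4 from -1.14 to -0.79, each passing without knockout replicate 1. Cd4 also passed when probe sets under the median level were dropped (-0.97, limma adjusted p = 0.0454), with a trended and robust variance (-0.97, limma adjusted p = 0.0378) and with array weights (-0.88, limma adjusted p = 0.0426), and Esam with the trended and robust variance (-1.10, limma adjusted p = 0.0492). Rbpj, Hes1 and Notch2 kept a negative sign and passed in none of their 15, 15 and 14 alternatives. Sirpa ranged from -0.33 to 0.41, positive on its probe set with the smallest p, and passed in none of 15. The 3 differences against Itgam kept their sign in 8 alternatives each.

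Genes called numbered 285, against 542 with the replicate block, 459 with probe sets averaged per gene, and 61 (without knockout replicate 2) to 475 (without knockout replicate 1) with 1 array left out. The 2 called probe sets of the 8 genes became 4 with the trended and robust variance and 0 to 4 with 1 array left out. Calls in the Notch list, 1 in the reported fit, were 2 with the trended and robust variance, 3 with the replicate block, 2 with the mean of probe sets and 0 to 3 with 1 array left out. Calls in the CD11b-positive list, 4 in the reported fit, were 7 with the trended and robust variance and 1 to 7 with 1 array left out. The causes were not tested. Deviations of same-numbered arrays correlated at 0.05, 0.13 and 0.32, and those of differently numbered arrays at -0.28 to 0.22. These values do not settle whether the numbers pair the samples, and the reported fit did not take them to. The block changed no call of the 8 genes (Itgam 1.31, limma adjusted p = 0.0493, and Dtx1 -0.97, limma adjusted p = 0.034).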
